A study of Mus musculus with 18 samples.

Results

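The genes described here are the pore-forming and accessory subunits of voltage-gated sodium, calcium and potassium channels, of the other potassium channels and of the hyperpolarization-activated channels, measured in laser-captured lumbar spinal motor neurons. They were chosen by symbol alone: every gene with a probe set of a single symbol that starts with Kcn, Scn plus a digit, Cacna, Cacnb, Cacng or Hcn plus a digit. The rule took 96 of 12393 genes, with 139 probe sets, and each gene was read from its probe set of highest mean log2 signal over the 18 arrays. Of the 96 genes, 69 passed the filter on low signal (above the array's median on at least 3 arrays) and were tested, and 27 did not.

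The animals were mice with a transgene for human SOD1 bearing the G93A mutation, used to model familial amyotrophic lateral sclerosis (ALS), and non-transgenic littermates, called controls. They were 60, 90 or 120 days old, with 3 animals per genotype and age and 1 array per animal. Each G93A group has a control group of its own age. Strain, sex and transgene copy number are not given in the labels. The transgene of the G93A line is known to be active in glia as well as in neurons, and the labels describe the captured cells only as motor neurons. Each comparison asks which channel transcripts separate the genotypes at an age or the ages within a genotype.

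Voltage-gated channels set how a motor neuron fires. Sodium channels at the axon initial segment start the action potential, potassium channels of several families end it and shape the pause that follows, and calcium channels trigger transmitter release and feed calcium-activated potassium channels. Inward rectifiers, 2-pore channels and hyperpolarization-activated channels set the resting potential and the input resistance. Altered excitability of motor neurons is a known feature of SOD1 mouse models.

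Between the genotypes, 0 of the 69 tested channel genes passed the test at any age, where at most 0.659% of all 10020 tested genes did. Between 60 and 120 days 3 channel genes changed in G93A and 4 in controls, 6 different genes in all, beside 2.26% and 7.03% of all tested genes. Promoters are shown for 3 of these 6, Hcn2 and Kcnc4, which rose with age in G93A, and Kcnc1, which fell with age in controls. The windows are the 250 bases before the annotated start, 5′ to 3′ on the gene's strand, from RefSeq on GRCm38.p6: chr10:79716384-79716633 on the plus strand for Hcn2, chr3:107458899-107459148 on the minus strand for Kcnc4 and chr7:46396218-46396467 on the plus strand for Kcnc1. Capitals mark the GC box, GGGCGG or its reverse complement CCGCCC.
Hcn2 promoter: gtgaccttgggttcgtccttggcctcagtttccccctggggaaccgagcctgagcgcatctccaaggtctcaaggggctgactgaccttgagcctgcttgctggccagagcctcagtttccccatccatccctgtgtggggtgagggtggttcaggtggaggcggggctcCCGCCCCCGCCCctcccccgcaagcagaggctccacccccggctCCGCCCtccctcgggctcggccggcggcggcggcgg
Kcnc4 promoter: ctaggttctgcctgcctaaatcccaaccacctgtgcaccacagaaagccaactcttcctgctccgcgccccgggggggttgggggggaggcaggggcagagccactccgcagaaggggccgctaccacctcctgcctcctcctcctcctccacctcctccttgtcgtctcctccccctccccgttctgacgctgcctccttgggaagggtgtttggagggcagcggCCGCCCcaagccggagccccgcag
Kcnc1 promoter: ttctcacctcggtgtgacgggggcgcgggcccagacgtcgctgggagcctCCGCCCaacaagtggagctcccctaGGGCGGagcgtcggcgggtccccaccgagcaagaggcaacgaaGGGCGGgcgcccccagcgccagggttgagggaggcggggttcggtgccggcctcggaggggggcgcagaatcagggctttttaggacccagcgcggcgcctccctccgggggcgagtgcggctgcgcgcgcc
The window of Hcn2 held 3 GC boxes, that of Kcnc4 held 1 and that of Kcnc1 held 3. Their GC contents were 70.4%, 68% and 74.4%. Promoters in the table matched 76 of the 96 channel genes, with 104 windows because a gene can have several starts, and 44.2% of these windows held at least 1 GC box, against 32.7% of all 32851 windows. The match is a description of the letters and not a binding site.

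Signals are on the linear scale of the array software, and differences are on the log2 scale. With 3 arrays a group, precision was limited: at a single age the standard error of the genotype difference had a median of 0.74 over the tested channel genes and 0.69 over all 16565 tested probe sets. Across probe sets, which are not independent replicates, 2 arrays of 1 group correlated at 0.641 to 0.838 and 2 arrays of different groups at 0.539 to 0.864. The 2 least correlated arrays were control replicates 2 and 3 at 60 days. The mean level of the hybridization controls, spiked into every sample, was 9.47 on G93A and 11.15 on control arrays at 60 days, in log2 units (p = 0.1 in an exact permutation test, and 3 arrays against 3 cannot give a smaller one). The 90-day means were 9.09 on G93A and 9.83 on control arrays (exact permutation, p = 0.4), and the 120-day means were 11.62 and 11.64 (exact permutation, p = 0.9). The log2 ratio of 3′ over 5′ Gapdh signal, a measure of RNA quality, was 4.14, 4.39 and 4.94 on G93A arrays and 3.36, 3.25 and 4.48 on control arrays at 60, 90 and 120 days. Of 10 motor neuron markers measured, Prph and the 3 neurofilament genes Nefh, Nefm and Nefl lay above the array's median on all 18 arrays, but the vesicular acetylcholine transporter gene Slc18a3 did so on 0 and the choline transporter gene Slc5a7 on 2. Marker lists differed between the genotypes at 60, 90 and 120 days by median log2 differences, G93A minus control, of -0.2, -0.72 and -0.9 for motor neurons, 0.36, 1.13 and 0.36 for astrocytes, -0.03, 0.78 and 1.91 for microglia, 0.83, 0.28 and 0.14 for oligodendrocytes, -0.25, 0.99 and 0.04 for endothelium and 0.22, 0.53 and -0.42 for interneurons, and 1 marker, of microglia at 60 days, passed the limma test at a single age. Mouse Sod1, whose probe sets may or may not detect the human transgene, passed the limma test with 0 of its 2 probe sets at any age.

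Signal relative to the array's median divided the channel genes before any comparison. A signal below the median does not show that a transcript was absent. Signals of 14 channel genes lay above the array's median on all 18 arrays: the sodium pore genes Scn1a and Scn8a, the potassium pore genes Kcna1, Kcnc1, Kcnc4, Kcnh2, Kcnj10, Kcnj14 and Kcnk1, the potassium channel accessory genes Kcnab2 and Kcnmb4, and the calcium channel accessory genes Cacna2d2, Cacna2d3 and Cacng5. On 0 arrays were 12 channel genes above the median, among them the N-type calcium pore gene Cacna1b and the inward rectifier Kcnj2. The filter kept 4 of 8 sodium pore genes, the 1 sodium beta gene, 11 of 12 pore genes of the Kv1 to Kv4 families, 1 of 2 modulatory Kv genes, 4 of 4 genes of the EAG family, 1 of 2 of the Kv7 family, 8 of 12 potassium accessory genes of the Kcnab, Kcne and Kcnip families, 8 of 13 inward rectifiers, 5 of 8 two-pore genes, 8 of 9 calcium- and sodium-activated potassium genes, 6 of 9 calcium pore genes, 10 of 14 calcium accessory genes and 2 of 2 HCN genes. Among the tested channel genes, 41 had an array above the median in each of the 6 groups and 0 had one in a single group. Signals of different probe sets are not comparable, so no order of levels between genes is given.

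Between G93A and control motor neurons, 0 of 69 channel genes passed the test at 60, 90 or 120 days or in the mean over the 3 ages. The smallest limma adjusted p-values were 0.163, 0.795, 0.223 and 0.396. Over all 10020 tested genes the test called 0.659% at 60 days, 0% at 90 days, 0.0299% at 120 days and 0.02% in the mean over ages. An unadjusted p below 0.05 was reached at 60 days by 4 of 69 channel genes, 1 higher and 3 lower in G93A, beside 13% of all tested genes. At 90 days it was reached by 6, 3 higher and 3 lower, beside 4.73%. At 120 days it was reached by 7, 1 higher and 6 lower, beside 11.9%, and in the mean over ages by 8, 4 higher and 4 lower, beside 8.08%. The 6 genes at 90 days were Cacna1a, Cacna1g, Cacna2d1, Cacna2d2, Kcnj10 and Kcnk1, and the 7 at 120 days were Cacna1f, Kcna5, Kcna6, Kcnab1, Kcnip2, Kcnj14 and Kcnmb2. The genotype difference changed with age for 0 channel genes by limma's F test (smallest adjusted p = 0.233), where 0.399% of all tested genes were called, and 6 channel genes had an unadjusted p below 0.05 beside 13.2% of all tested genes. In captured tissue, fewer cells of a type and less RNA per cell cannot be told apart.

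The channel genes as a group lay close to all tested genes. Their log2 differences (G93A minus control) had a median of -0.16 at 60 days, -0.07 at 90 days, 0.13 at 120 days and -0.07 in the mean over ages, and that of all tested genes was -0.07, -0.01, 0.07 and 0.01. Of 69 channel genes, 27, 30 and 38 lay above 0 at 60, 90 and 120 days. With each array centred on its own median these counts were 35, 36 and 26 and the medians 0.07, 0.08 and -0.19, while the medians of all tested genes became 0.16, 0.14 and -0.25, so the side on which the group fell depended on the scaling. At 60 days the 3 G93A arrays did not overlap with the 3 control arrays for 12 channel genes, 4 higher and 8 lower, beside 8.19% higher and 10.8% lower over all tested genes. At 90 days there were 5 higher and 3 lower, beside 5.74% and 5.82%. At 120 days there were 3 higher and 2 lower, beside 9.42% and 6.72%.

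**Figure D1:**
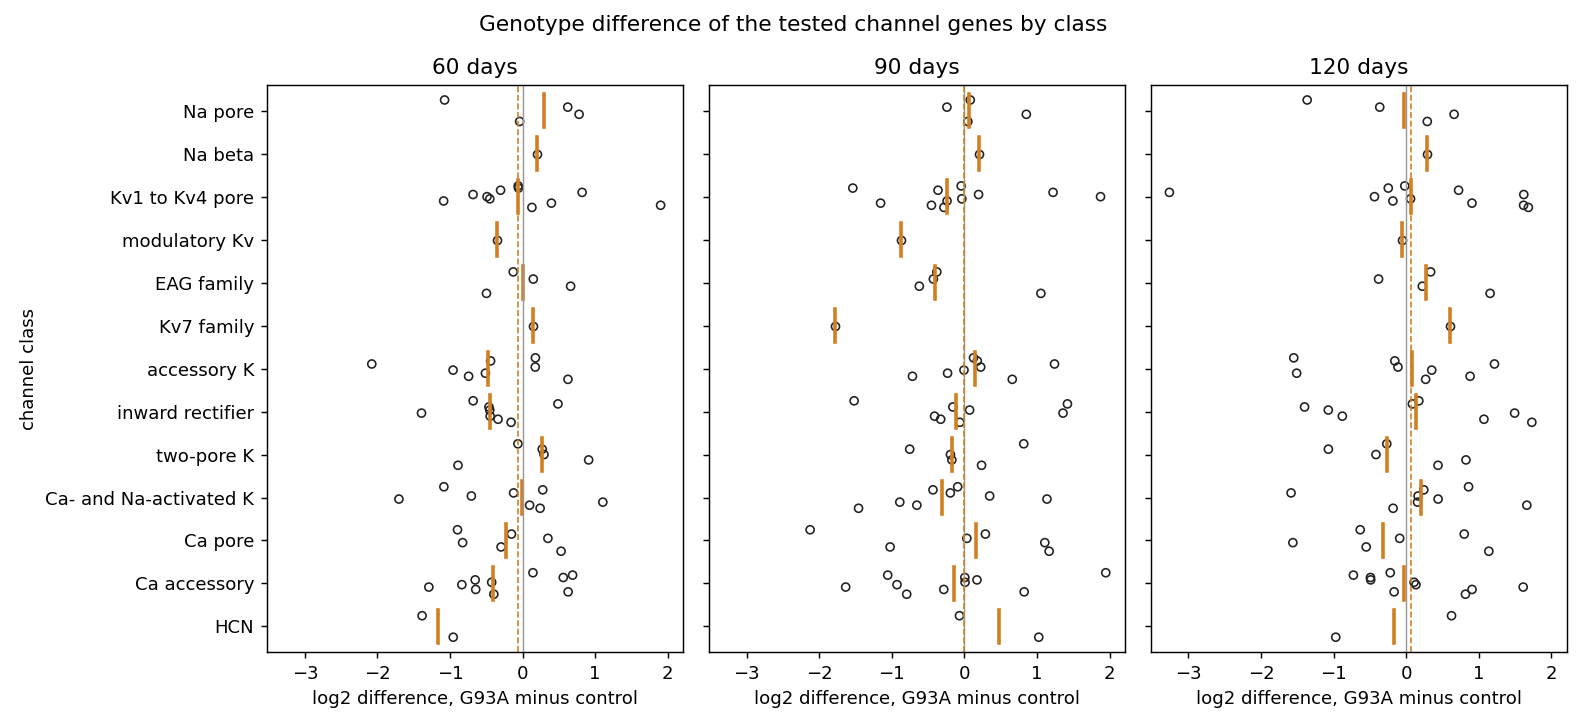
Log2 difference, G93A minus control, of each of the 69 tested channel genes (open circles) at 60, 90 and 120 days, with channel classes in rows. Orange bars are class medians and the dashed line is the median of all tested genes. The circles spread to both sides of 0 in most classes, from -2.08 to 1.9 at 60 days and from -3.26 to 1.73 at 120 days, and 0 passed the test.

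Among the sodium channels, Scn2a, an early-developing pore subunit of the axon initial segment, was higher on every G93A array than on every control array at 60 and at 120 days. Its signals were 87.2, 72.6 and 116.5 in G93A animals, against 41.2, 58.4 and 60.8 in control animals, at 60 days. They were 25.2, 79.4 and 65.1 in G93A animals, against 15.2, 67.1 and 21.7 in control animals, at 90 days, where the groups overlapped. At 120 days they were 84.3, 105.8 and 96.5 in G93A animals, against 49.2, 54.8 and 81.1 in control animals. The log2 difference was 0.78 ± 0.61 at 60 days (limma adjusted p = 0.646), 0.66 ± 0.61 at 120 days (limma adjusted p = 0.708) and 0.76 ± 0.35 in the mean over ages (limma adjusted p = 0.63). None of these passed the test. A second Scn2a probe set, of low signal and not tested, went the other way at 60 days. It had 3.9, 6.2 and 5.8 in G93A animals and 35, 22.2 and 49.5 in control animals, without overlap. At 120 days this probe set had 1.3, 2.2 and 2.5 in G93A animals and 0.9, 5.8 and 1.8 in control animals.

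Scn1a, a pore subunit found at the initial segment of motor neurons, had signals of 465.9, 529.9 and 407.9 in G93A animals, against 373.1, 265.8 and 278.7 in control animals, at 60 days, without overlap (log2 difference 0.62 ± 0.37, limma adjusted p = 0.509). At 120 days the order was mixed, with 167.6, 224.5 and 283.4 in G93A animals and 503.9, 254 and 178.1 in control animals. Its second tested probe set differed by 1.32, -0.63 and 1.41 at 60, 90 and 120 days, so the 2 probe sets had opposite signs at 120 days. Scn8a, the main sodium pore of nodes of Ranvier, overlapped at 60 days, with 328.5, 224.2 and 213.6 in G93A animals and 377.1, 209.3 and 217.2 in control animals, and likewise at 90 and 120 days. Scn11a, best known from sensory neurons, and the representing probe set of Scn3b, a beta subunit that modifies gating, also overlapped at each age. A second tested Scn3b probe set, of lower signal, was higher on every G93A array at 120 days (1.80 ± 1.01, limma adjusted p = 0.495).

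In the Kv1 to Kv4 families the separated differences of smallest p were those of Kcnc4 and Kcna5. Kcnc4, a rapidly inactivating channel of high threshold, had signals of 143.8, 114.4 and 67 in G93A animals, against 162.5, 344 and 189.6 in control animals, at 60 days. Every G93A array was below every control array, by a log2 difference of -1.09 ± 0.36 (limma adjusted p = 0.163), and in the mean over ages the difference was -0.50 ± 0.21 (limma adjusted p = 0.577). At 90 days the Kcnc4 signals were 144.1, 149.5 and 151.1 in G93A animals and 213.6, 136.9 and 183.3 in control animals, and at 120 days they were 315.2, 341.7 and 241.7 in G93A animals and 374.4, 283.4 and 359.7 in control animals, with overlap at both ages. The probe set of Kcnc4 carries the suffix that the array maker gives to sets matching several transcripts.

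Kcna5, a delayed rectifier, had signals of 3.4, 6 and 3.4 in G93A animals, against 21.7, 32.8 and 86.2 in control animals, at 120 days. The groups did not overlap and differed by -3.26 ± 1.08 (limma adjusted p = 0.223), but the gene lay above the array's median on 3 of 18 arrays only, so the size of this difference rests on signals close to the floor. At 60 days its signals were 27.9, 9.5 and 78.6 in G93A animals and 7, 7.8 and 69.4 in control animals. Its genotype difference had the smallest p of the channel genes for a change with age (limma F test, adjusted p = 0.233).

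Kcnd2, which carries the A-type current of dendrites, had signals of 88.7, 160.8 and 110.6 in G93A animals, against 36.4, 23.6 and 63.8 in control animals, at 120 days, without overlap (log2 difference 1.62 ± 0.79, limma adjusted p = 0.412). Its other tested probe sets differed by 0.84 and -0.08 at 120 days, and the mean of all its probe sets by 0.79. At 60 days they were 98.1, 90.6 and 105.5 in G93A animals and 136.3, 30 and 4.4 in control animals. Control replicate 1 lay above every G93A array there, and without it Kcnd2 differed by 3.09 and passed the test (limma adjusted p = 0.0277). Its mean difference over ages was 1.02 ± 0.45 (limma adjusted p = 0.623). Kcna6 was lower on every G93A array at 60 days, with 57.3, 54.1 and 54.4 in G93A animals and 68.8, 86.2 and 117.6 in control animals (log2 difference -0.68 ± 0.78, limma adjusted p = 0.769), and Kcna7 was higher on every G93A array at 90 days, with 95.9, 63.8 and 36.5 in G93A animals and 9.6, 14 and 33.7 in control animals (1.88 ± 0.92, limma adjusted p = 0.997).

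The axonal channels Kcna1 and Kcna2, which flank the nodes of Ranvier, overlapped between genotypes at each age. Kcna1 had signals of 531.5, 363.6 and 436.4 in G93A animals and 454.4, 387.4 and 544 in control animals at 60 days, and 346.5, 455 and 407.3 in G93A animals and 579.6, 456.8 and 253.1 in control animals at 120 days. At 90 days both groups were above these values, with 643.8, 872.6 and 862 in G93A animals and 689.8, 1061.4 and 726.2 in control animals. Kcns2, a modulatory subunit that is silent alone, and Kcnq5, a pore of the M-current, were lower on every G93A array at 90 days. Kcns2 had 46.3, 27.8 and 31.2 in G93A animals and 49.4, 64.9 and 76.1 in control animals (-0.87 ± 0.74), and Kcnq5 had 35.8, 15.1 and 4.2 in G93A animals and 40.7, 42.8 and 53.2 in control animals (-1.78 ± 1.06, limma adjusted p = 0.997 for both). In the EAG family Kcnh1, Kcnh2, Kcnh3 and Kcnh7 overlapped between genotypes at all 3 ages.

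Of the potassium accessory genes of the Kcnab, Kcne and Kcnip families, 1 showed a separated difference in its representing probe set. Further tested probe sets of Kcnip1 and Kcnip4 also separated, in both directions. For Kcnip4, 1 differed by -1.255 at 90 days and by 1.97 at 120 days (limma adjusted p = 0.997 and 0.262). For Kcnip1, 1 differed by -1.435 at 60 days and another by 1.83 at 120 days (limma adjusted p = 0.378 and 0.419). Kcnab2, a cytoplasmic beta subunit of Kv1 channels, had signals of 221.3, 148.1 and 216.8 in G93A animals, against 250.6, 227.6 and 311.8 in control animals, at 60 days (log2 difference -0.44 ± 0.31, limma adjusted p = 0.595). At 90 days they were 262.4, 314.2 and 293 in G93A animals and 253.4, 247.1 and 267.1 in control animals, with overlap. Its relative Kcnab1 had 79.4, 16.2 and 116.4 in G93A animals and 310.5, 154.5 and 78.3 in control animals at 120 days, where control replicate 3 fell inside the G93A range, and its second tested probe set differed by 0.43 at that age, in the other direction. Kcnip2, a calcium-sensing partner of Kv4 channels, differed by -0.75 ± 0.42 in the mean over ages (limma adjusted p = 0.702).

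Kcnj10, the inward rectifier that in the central nervous system is known from astrocytes and oligodendrocytes, was higher on every G93A array at 90 days. Its signals were 404.1, 391.9 and 377.6 in G93A animals, against 70, 344.9 and 129.5 in control animals, a log2 difference of 1.42 ± 0.41 (limma adjusted p = 0.795). The G93A arrays lay within a narrow range, and control replicates 1 and 3 were well below them while replicate 2 was close. At 60 days the signals were 532.5, 363 and 329.4 in G93A animals and 285.4, 236 and 343.6 in control animals, and at 120 days 469.7, 524.7 and 440.6 in G93A animals and 674.4, 298.6 and 452.9 in control animals, with overlap at both ages. In the mean over ages Kcnj10 differed by 0.66 ± 0.24 (limma adjusted p = 0.541). Of 8 astrocyte markers, 7 had a difference above 0 at 90 days and 4 an unadjusted p below 0.05, with a median of 1.13. Their summed signal was 4391 to 7966 on the G93A arrays and 2446 to 5246 on the control arrays, most of it from Aldoc and Gja1. Of 7 oligodendrocyte markers tested, 5 had a difference above 0 at 90 days and 1 an unadjusted p below 0.05, with a median of 0.28. The part of these cells in the Kcnj10 values was not tested.

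Kcnj14, an inward rectifier described in cranial motor nuclei of the rat, differed by -0.68 ± 0.32 in the mean over ages (limma adjusted p = 0.633). At 120 days it had 61.1, 55.1 and 122 in G93A animals and 479.4, 161.3 and 97.9 in control animals, which overlapped through control replicate 3. Kcnj5, a G-protein-gated rectifier best known from heart, was separated in opposite directions at 60 and 90 days. It had 42.7, 15.2 and 40.4 in G93A animals and 90, 68.6 and 77 in control animals at 60 days (-1.39 ± 1.13, limma adjusted p = 0.659), and 50.4, 37.6 and 40.9 in G93A animals and 28.6, 7 and 23 in control animals at 90 days (1.36 ± 1.13, limma adjusted p = 0.997). It lay above the array's median on 5 of 18 arrays.

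Among the two-pore channels, which carry background potassium current, Kcnk1 was higher on every G93A array at 90 days. Its signals were 464.8, 484.4 and 427.3 in G93A animals, against 268.5, 353 and 185.7 in control animals (log2 difference 0.82 ± 0.32, limma adjusted p = 0.997). They were 308.1, 302.6 and 160.3 in G93A animals and 252.7, 214.8 and 315.2 in control animals at 60 days, and 229.1, 203.7 and 260.8 in G93A animals and 333.5, 249.3 and 255.8 in control animals at 120 days. The second tested probe set of Kcnk1 differed by -0.04 at 90 days. Kcnk2, a mechanosensitive member, had 47.5, 65.5 and 67.8 in G93A animals and 84.9, 85.1 and 69.5 in control animals at 120 days, separated by a small margin (-0.42 ± 0.58, limma adjusted p = 0.815).

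Kcnma1, the pore of the large-conductance calcium-activated potassium channel, was separated in opposite directions at 60 and 120 days. Its signals at 60 days were 40.3, 84.5 and 97.6 in G93A animals, against 141.4, 132.9 and 168.8 in control animals. At 90 days they were 45, 80.2 and 42.6 in G93A animals and 49.8, 63.6 and 58.9 in control animals, and at 120 days 105.9, 114.7 and 145.4 in G93A animals and 44.5, 78 and 85.4 in control animals. The G93A arrays were thus all below the control arrays at 60 days (-1.09 ± 0.48, limma adjusted p = 0.342), overlapped with them at 90 days and were all above them at 120 days (0.86 ± 0.48, limma adjusted p = 0.495). The change of this difference with age had a limma adjusted p of 0.321 in the F test, so it did not pass. The second tested probe set of Kcnma1 differed by -0.30 at 60 days and by -1.06 at 120 days, and the mean of the probe sets at 120 days was -0.10. Its neuronal beta subunit Kcnmb4 had 179.5, 250.7 and 215.7 in G93A animals, against 399.8, 333.1 and 316.5 in control animals, at 60 days, without overlap (-0.71 ± 0.35, limma adjusted p = 0.41). Kcnn2, the small-conductance channel of the afterhyperpolarization, had 48.6, 76.8 and 60.9 in G93A animals and 61.2, 11.8 and 31.6 in control animals at 60 days and overlapped at each age.

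Of the calcium pores, Cacna1a, the P/Q-type channel that drives release at the neuromuscular junction, was lower on every G93A array at 90 days. Its signals were 27.6, 31.2 and 69.8 in G93A animals, against 226.8, 106.1 and 207.9 in control animals, a log2 difference of -2.13 ± 0.63 (limma adjusted p = 0.842). At 60 days they were 41.3, 192.3 and 91.4 in G93A animals and 122.8, 181.5 and 210.3 in control animals, and at 120 days 105.5, 131.4 and 20.6 in G93A animals and 92.3, 140.9 and 82.1 in control animals, with overlap at both ages. The mean over ages was -1.22 ± 0.36 (limma adjusted p = 0.396), the smallest p of the channel genes in that comparison, and with the Gapdh ratio as a covariate it was -0.25. The second tested probe set of Cacna1a differed by 0.95 at 90 days, in the other direction, with 40.3, 79.1 and 56.5 in G93A animals and 5.2, 58.2 and 82.9 in control animals.

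The representing probe sets of the T-type pores Cacna1g and Cacna1h, which open near rest, differed in opposite directions in the mean over ages, by -0.62 ± 0.28 and 0.95 ± 0.44 (limma adjusted p = 0.63 and 0.631). For Cacna1h the direction depended on the probe set: the second tested one differed by -0.43, and the mean of the probe sets was 0.26. With the Gapdh ratio as a covariate Cacna1g differed by -0.01. Cacna1g had 66.1, 88.3 and 131.5 in G93A animals and 212.7, 114.4 and 265 in control animals at 90 days. Cacna1f, an L-type pore best known from retina, was higher on every G93A array at 90 days, with 79.6, 91.2 and 108.7 in G93A animals and 30.9, 51.3 and 49.8 in control animals (1.11 ± 0.74, limma adjusted p = 0.997), and overlapped at 120 days with 83.3, 14.6 and 5.3 in G93A animals and 46.1, 35.9 and 100.3 in control animals. The L-type pore Cacna1c overlapped at each age, as did the alpha2delta subunit Cacna2d1, which had 61.5, 112.7 and 65.3 in G93A animals and 13.8, 72.4 and 7.9 in control animals at 90 days.

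Both alpha2delta subunits above the median on all arrays, which help bring calcium pores to the membrane, were higher on every G93A array at 60 days. Cacna2d2 had 614.5, 428 and 376 in G93A animals, against 338.7, 291 and 239.6 in control animals (0.69 ± 0.44, limma adjusted p = 0.545). Cacna2d3 had 254.9, 322.3 and 281.8 in G93A animals, against 208.1, 186.8 and 185.9 in control animals (0.56 ± 0.32, limma adjusted p = 0.487). At 90 days Cacna2d2 had 145.6, 476.2 and 273.9 in G93A animals and 322.9, 638.5 and 829.9 in control animals, and at 120 days 231, 467.5 and 196.8 in G93A animals and 678.4, 548.6 and 259.6 in control animals. The control arrays thus reached higher signals than the G93A arrays at both later ages, with overlap, and the change with age had a limma adjusted p of 0.287 in the F test. Cacnb4, a cytoplasmic beta subunit, was lower on every G93A array at 60 days, with 95.9, 68.7 and 94.4 in G93A animals and 113.5, 120 and 110.8 in control animals (-0.43 ± 0.44, limma adjusted p = 0.741), but +0.18 for the mean of its probe sets. Cacng2 and Cacng5, members of the gamma family that act as auxiliary subunits of AMPA receptors, overlapped at each age in their representing probe sets. That of Cacng5 differed by 0.43 ± 0.25 in the mean over ages (limma adjusted p = 0.725). The second tested probe set of Cacng5 went the other way. At 60 days it had 33.1, 7.6 and 43.3 in G93A animals and 92.4, 125.6 and 90.7 in control animals, without overlap. It differed by -2.20 ± 0.97 there (limma adjusted p = 0.337) and by -0.34 in the mean over ages. For Cacng2 the genotype difference was among the 5 with the smallest p for a change with age (limma F test, adjusted p = 0.333).

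Hcn2, a pore of the current that opens on hyperpolarization and stabilizes the resting potential, was lower on every G93A array at 60 days. Its signals were 37.6, 70.8 and 49.4 in G93A animals, against 129.2, 170.2 and 106.5 in control animals, a log2 difference of -1.39 ± 0.46 (limma adjusted p = 0.176). At 90 days they were 96.4, 55.2 and 76.2 in G93A animals and 49.8, 85.9 and 109.3 in control animals, and at 120 days 213.6, 135.3 and 257.9 in G93A animals and 81.1, 131.6 and 190.9 in control animals, with overlap at both ages. The change of this difference with age had a limma adjusted p of 0.264 in the F test. With the hybridization-control level as a covariate, 2 channel genes instead of 4 had an unadjusted p below 0.05 at 60 days. Hcn3 overlapped at each age.

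**Figure D2:**
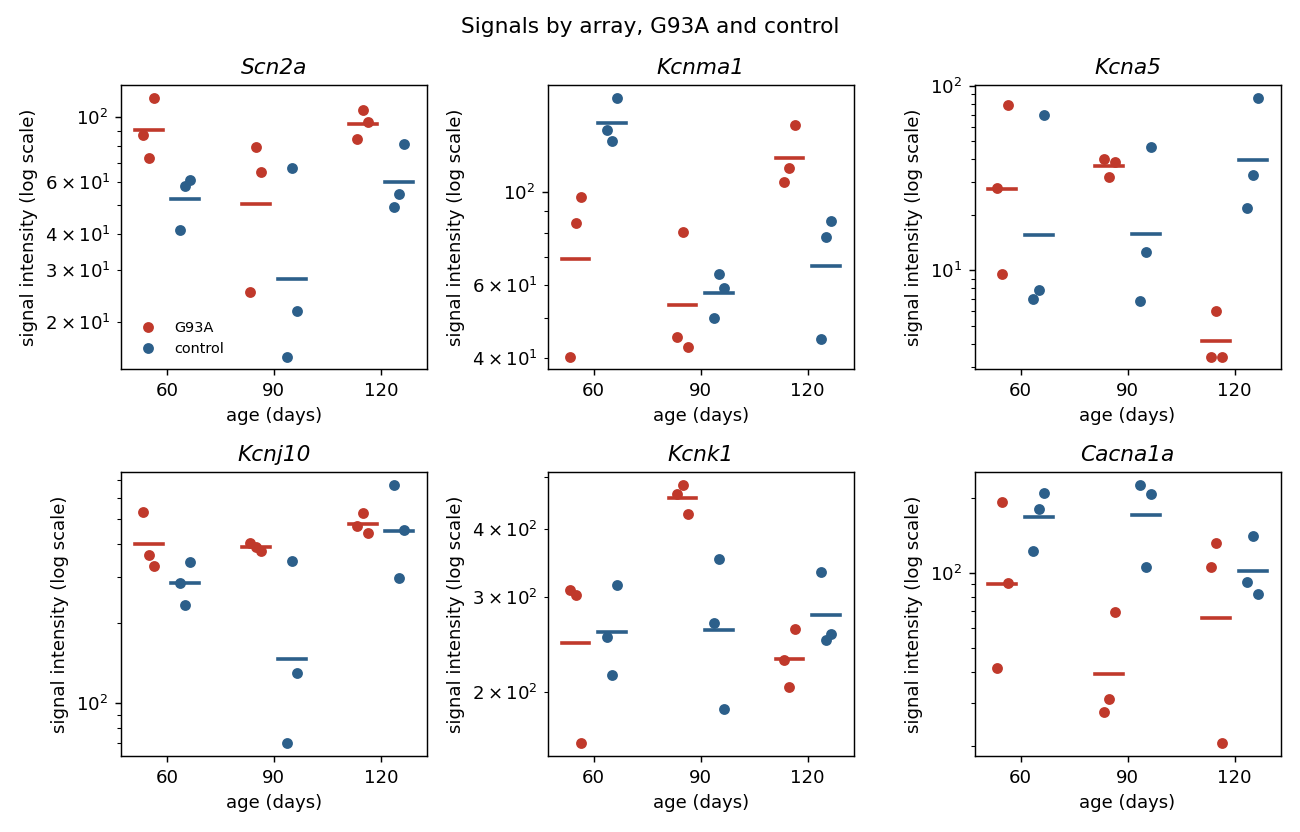
Signal intensity on a log axis of 6 channel genes on each of the 18 arrays by age, G93A in red to the left of control in blue, with geometric means as bars. Each gene is shown by its representing probe set. Scn2a lay higher in G93A at 60 and 120 days, Kcnma1 lower at 60 and higher at 120 days, Kcna5 lower at 120 days, Kcnj10 and Kcnk1 higher and Cacna1a lower at 90 days, and 0 of these differences passed the test.

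The sign of a difference often varied with the probe set. For 19 tested channel genes, 24 further probe sets were tested, and the sign of their genotype difference matched that of the representing probe set for 15 of 24 at 60 days, 11 at 90 days and 12 at 120 days. Genes that position or modify these channels were read in the same fit. Of 32 such partner genes, chosen with earlier results of these data known, 21 were measured and 19 tested, and 0 passed the limma test at any age or in the mean over ages. At an unadjusted p below 0.05 there was 1 lower at 60 days, 1 higher at 90 days, 1 higher at 120 days and 0 in the mean over ages. The spectrin gene Sptbn4, part of the scaffold of initial segments and nodes, was the partner in question at 60 days (log2 difference -1.06) and at 120 days (1.51), and Nedd4l, a ubiquitin ligase that regulates sodium channels, at 90 days (2.16).

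Between 60 and 120 days, 3 channel genes changed in G93A motor neurons, all upward: Hcn2, Kcnc4 and Kcnab2. In controls 4 changed, with Kcnab2 higher and Kcnmb4, Kcnc1 and Kcnj5 lower at 120 days. These are 3 and 4 of 69, beside 2.26% of all tested genes called in G93A and 7.03% in controls. An unadjusted p below 0.05 was reached by 13 channel genes in G93A (3 higher, 10 lower) and 8 in controls (1 higher, 7 lower), beside 17.3% and 24.7% of all tested genes. The channel genes had a median age difference of 0.08 in G93A and -0.21 in controls, and all tested genes had -0.11 and -0.22. With arrays centred on their medians, the control median of all tested genes became 0.28 and that of the channel genes 0.29.

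**Figure D3:**
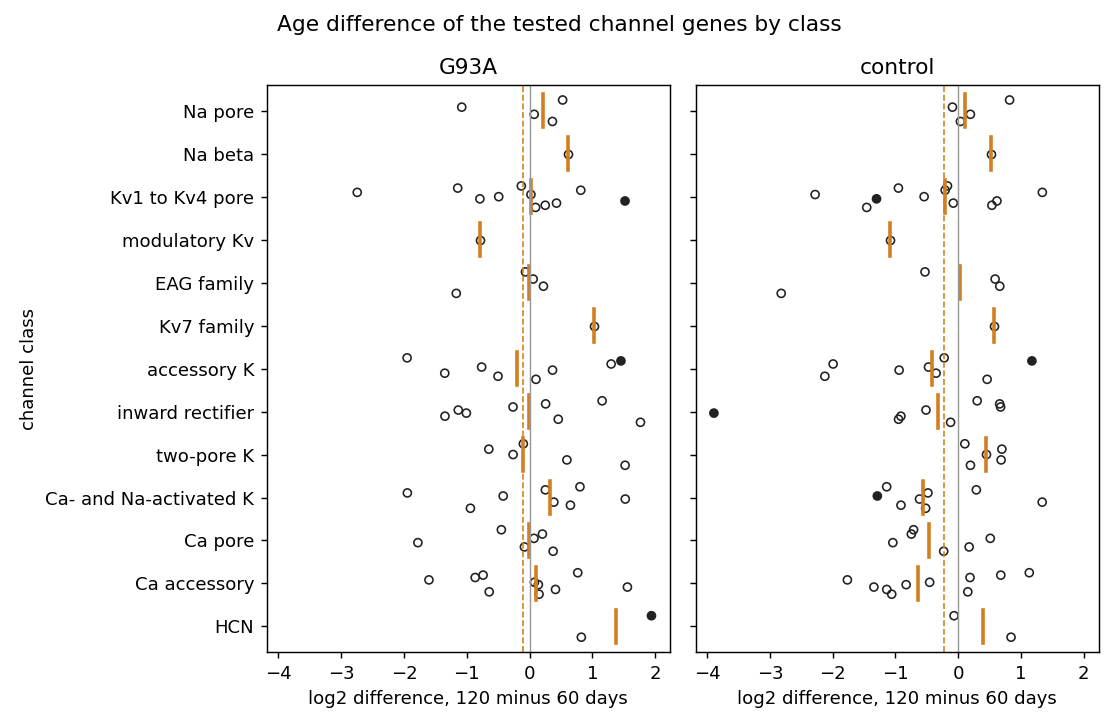
Log2 difference, 120 minus 60 days, of each of the 69 tested channel genes in G93A (left) and control (right) motor neurons, with channel classes in rows. Filled circles passed the limma test, 3 in G93A and 4 in controls, orange bars are class medians and the dashed line is the median of all tested genes.

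Hcn2 had signals of 213.6, 135.3 and 257.9 at 120 days, against 37.6, 70.8 and 49.4 at 60 days, in G93A. The ages did not overlap, and Hcn2 rose by a log2 difference of 1.94 ± 0.46, a 3.84-fold change (limma adjusted p = 0.0311). In controls it had 81.1, 131.6 and 190.9 at 120 days and 129.2, 170.2 and 106.5 at 60 days, with overlap. The F test of the genotype difference over the 3 ages did not separate the genotypes (limma adjusted p = 0.264). The call was lost without G93A replicate 1, 2 or 3 at 60 days (1.72, 2.18 and 1.92) and without G93A replicate 1 or 3 at 120 days (1.88 and 1.74).

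Kcnc4 had 315.2, 341.7 and 241.7 at 120 days, against 143.8, 114.4 and 67 at 60 days, in G93A, a rise of 1.52 ± 0.36 or 2.87-fold (limma adjusted p = 0.0288). Every 120-day array was above every 60-day array, and the 90-day signals of 144.1, 149.5 and 151.1 lay just above those at 60 days. In controls the ages overlapped, with 374.4, 283.4 and 359.7 at 120 days and 162.5, 344 and 189.6 at 60 days, and the F test gave a limma adjusted p of 0.554. The call was lost without G93A replicate 2 or 3 at 60 days (1.59 and 1.21), without G93A replicate 1 or 2 at 120 days (1.48 and 1.42), and with arrays centred on their medians (1.47). It was also lost for the mean of the Kcnc4 probe sets (0.97, limma adjusted p = 0.462). The other Kcnc4 probe set was not tested, so the call rests on the set whose suffix marks a match to several transcripts.

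Kcnab2 changed in both genotypes and in the same direction. In G93A it had 534.2, 344.4 and 798.1 at 120 days, against 221.3, 148.1 and 216.8 at 60 days (1.46 ± 0.31, 2.74-fold, limma adjusted p = 0.0174). In controls it had 500.6, 567.7 and 717.1 at 120 days, against 250.6, 227.6 and 311.8 at 60 days (1.17 ± 0.31, 2.25-fold, limma adjusted p = 0.0251). The signals at 90 days, 262.4, 314.2 and 293 in G93A animals and 253.4, 247.1 and 267.1 in control animals, were all below those at 120 days. The second tested probe set of Kcnab2, of lower signal, differed by 0.11 in G93A and by -1.03 in controls, so the mean of the probe sets was 0.79 in G93A and 0.07 in controls, and neither passed the test. The G93A call was lost without G93A replicate 2 at 60 days (1.27) or replicate 3 at 120 days (1.16). The control call was lost without control replicate 1 or 2 at 60 days (1.14 and 1.07) or replicate 2 or 3 at 120 days (1.20 and 1.03), and after quantile normalization (0.86, limma adjusted p = 0.104).

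Kcnmb4 had 198, 115.9 and 126 at 120 days, against 399.8, 333.1 and 316.5 at 60 days, in controls, and fell by 1.29 ± 0.35 in log2 units (limma adjusted p = 0.0283). Signals at 90 days were 356.3, 227 and 234.8, all above those at 120 days and partly within the 60-day range. In G93A it had 137.7, 134.7 and 218.7 at 120 days and 179.5, 250.7 and 215.7 at 60 days, with overlap, and the F test gave a limma adjusted p of 0.472. The control call was lost without control replicate 1, 2 or 3 at 60 days (-1.19, -1.32 and -1.36), without control replicate 2 or 3 at 120 days (-1.14 and -1.20), and with arrays centred on their medians (-0.79).

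Kcnc1, the channel that lets neurons fire fast, had 76.7, 168.5 and 139.5 at 120 days, against 305, 218.6 and 405.5 at 60 days, in controls, and fell by 1.30 ± 0.37 in log2 units (limma adjusted p = 0.0342). In G93A it had 112.3, 161.7 and 112.3 at 120 days and 174.9, 272.5 and 221.5 at 60 days, also without overlap, but the difference of -0.79 ± 0.37 did not pass (limma adjusted p = 0.285). The F test gave a limma adjusted p of 0.844. The control call was lost without control replicate 1 or 3 at 60 days (-1.29 and -1.09), without control replicate 1 at 120 days (-0.97), and with arrays centred on their medians (-0.80).

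Kcnj5 had 0.7, 2.9 and 50.1 at 120 days, against 90, 68.6 and 77 at 60 days, in controls, and fell by 3.89 ± 1.13 in log2 units (limma adjusted p = 0.0389). The size of this difference rests on control replicates 1 and 2 at 120 days, which lay at or near the floor of 1 set for the logarithm, and without replicate 1 at 120 days it was -2.69 and did not pass. It was also lost without control replicate 2 at 120 days (-3.46), without replicate 1, 2 or 3 at 60 days (-3.79, -3.99 and -3.90), without G93A replicate 3 at 90 days (-3.89), after quantile normalization (-3.33) and with arrays centred on their medians (-3.39). In G93A the signals were 4.6, 22.7 and 31 at 120 days and 42.7, 15.2 and 40.4 at 60 days.

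**Figure D4:**
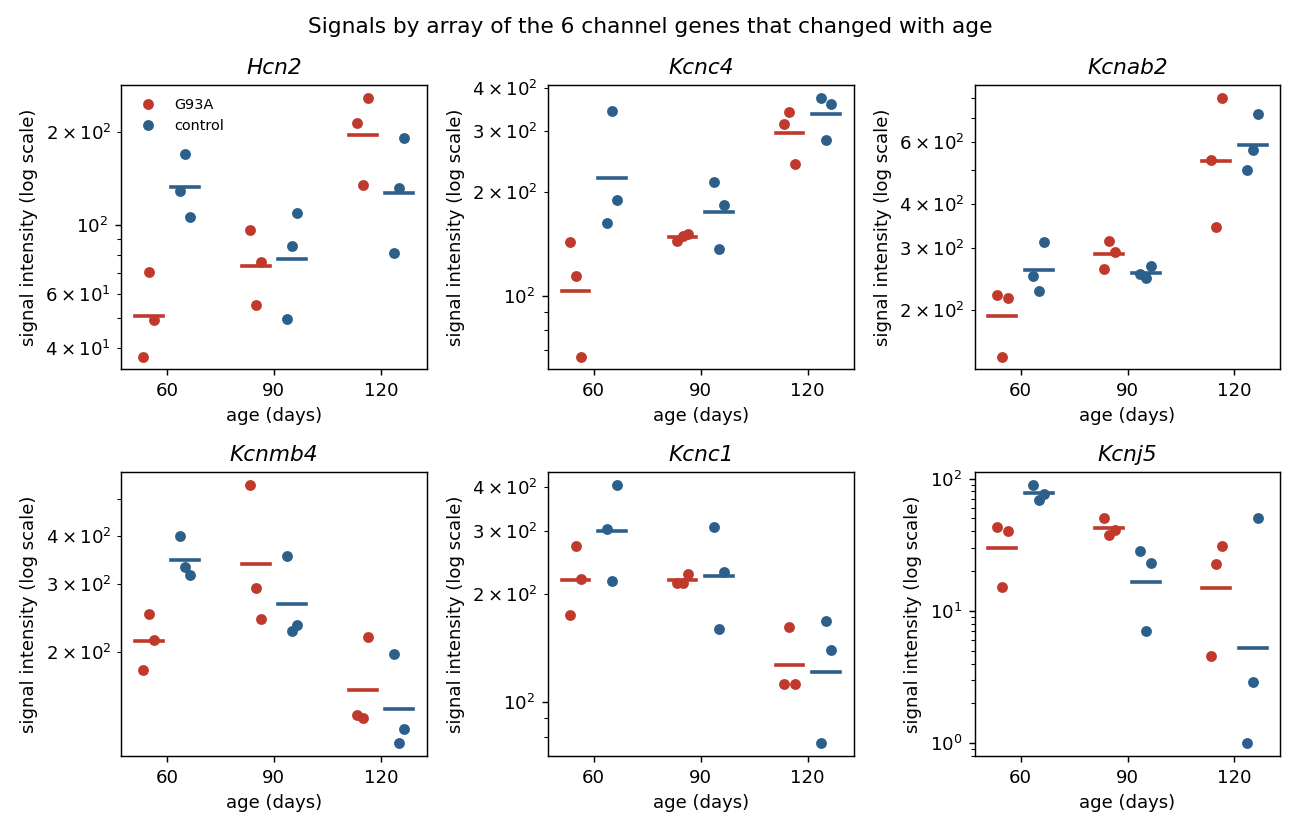
Signal intensity on a log axis of the 6 channel genes that changed between 60 and 120 days, on each of the 18 arrays by age, G93A in red to the left of control in blue, with geometric means as bars. Signals below 1 are drawn at 1. Hcn2 and Kcnc4 passed the test in G93A, Kcnmb4, Kcnc1 and Kcnj5 in controls and Kcnab2 in both.

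Other channel genes whose ages did not overlap missed the threshold. In G93A these included Kcnab1, with 79.4, 16.2 and 116.4 at 120 days and 218.5, 295.9 and 133.5 at 60 days (-1.95 ± 0.55, limma adjusted p = 0.0622), Scn1a (-1.08 ± 0.37, limma adjusted p = 0.126), Cacna2d3 (-0.87 ± 0.32, limma adjusted p = 0.164) and Kcna5 (-2.74 ± 1.08, limma adjusted p = 0.192). In controls they included Cacnb1, with 47.5, 36.5 and 89.8 at 120 days and 214.8, 234.5 and 121.5 at 60 days (-1.77 ± 0.58, limma adjusted p = 0.0619), and Kcna6, with 3.6, 37.7 and 44.9 at 120 days and 68.8, 86.2 and 117.6 at 60 days (-2.28 ± 0.78, limma adjusted p = 0.0757). For Scn1a and Kcnab1 a second tested probe set differed by 0.22 and 0.04 with age in G93A, not downward. On the upper side without passing were Kcnk7 (1.52 ± 0.75) and Kcnma1 (0.80 ± 0.48) in G93A, limma adjusted p = 0.315 and 0.427, and Kcnn2 (1.34 ± 0.66), Scn3b (0.53 ± 0.47) and Hcn3 (0.84 ± 0.92) in controls, limma adjusted p = 0.212, 0.519 and 0.604. The second tested probe set went downward for Kcnma1 in G93A (-1.24) and for Scn3b in controls (-2.04). Of the 24 further probe sets, 1 passed with age: that of Cacng5 fell by 3.18 ± 0.97 in log2 units in controls (limma adjusted p = 0.0473), with 3.6, 63.2 and 6.2 at 120 days and 92.4, 125.6 and 90.7 at 60 days, whereas the probe set that represents Cacng5 had 148.3, 130.4 and 110.6 at 120 days and 83.9, 216 and 86 at 60 days. Of the 19 partner genes tested, 0 changed with age in G93A and 1 in controls. This was Sptbn4, which had 90.1, 83.6 and 38.4 at 120 days, against 247.6, 280.9 and 281.5 at 60 days, in controls and fell by 2.03 ± 0.43 in log2 units (limma adjusted p = 0.00633).

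Array and marker values also differed between the ages. The median signal of an array ranged from 37 to 47.8 at 120 days and from 58 to 64 at 60 days in controls (exact permutation p = 0.1), and from 52 to 56 against 45.8 to 61.8 in G93A (exact permutation p = 0.8). Centring each array on this median ended the control calls of Kcnmb4, Kcnc1 and Kcnj5 and the G93A call of Kcnc4. The hybridization-control level ranged from 11.34 to 11.99 at 120 days and from 7.75 to 10.68 at 60 days in G93A (exact permutation p = 0.1), and with this level as a covariate 0 channel genes passed in G93A (Hcn2 1.74, Kcnc4 1.61 and Kcnab2 1.48). The log2 Gapdh ratio ranged from 4.22 to 4.73 at 120 days and from 3 to 3.66 at 60 days in controls (exact permutation p = 0.1), and with this ratio as a covariate 0 channel genes passed in controls. The same covariate ended the G93A calls of Hcn2 (1.92, limma adjusted p = 0.073) and Kcnab2 (1.24, limma adjusted p = 0.0712), while Kcnc4 (1.69) passed and Kcnab1 (-2.42) came to pass. Leaving out the 2 least correlated arrays, both from controls at 60 days, left 1 control array at that age, so no calls are given. The control differences were then 1.23 for Kcnab2, -1.49 for Kcnmb4, -1.33 for Kcnc1 and -4.1 for Kcnj5. With only the groups compared in the fit 0 passed in controls. Of 7 oligodendrocyte markers tested, 5 lay above 0 in G93A and 6 in controls, and their summed signal was 26195 to 39839 at 120 days against 12815 to 20931 at 60 days in G93A, and 22560 to 40138 against 12242 to 14035 in controls. Of 8 microglia markers tested, 7 lay above 0 in G93A and 5 in controls, and the sum over 9 measured was 11741 to 20937 at 120 days against 2483 to 3347 at 60 days in G93A, and 4269 to 7029 against 2151 to 4589 in controls. Of 8 motor neuron markers tested, 1 lay above 0 in G93A and 4 in controls. The sum over 10 measured was 8806 to 16353 at 120 days against 7678 to 19395 at 60 days in G93A. In controls it was 14594 to 29291 against 18979 to 28751. In G93A at 120 days 1 gene gave most of each of these 3 sums. These were Mbp for oligodendrocytes (19698.7 to 30393.7), Csf1r for microglia (6871.9 to 13708.2) and Nefl for motor neurons (7745.9 to 14872.2). The same genes gave most of the control sums. In controls at 120 days Mbp had 15083.6 to 31699.6, Csf1r 2375.4 to 4619.8 and Nefl 12989.5 to 26845.7. At 60 days in controls they had 9365.6 to 11985.2, 1188.1 to 3225.6 and 17125.3 to 25381.9. Among the astrocyte markers, 4 of 8 tested lay above 0 in G93A (median log2 difference 0.06) and 5 in controls (0.34). Interneuron markers lay above 0 for 2 of 6 tested in G93A and for 4 in controls. Single markers passed the limma test with age as well. In G93A these were the astrocyte marker Gfap, with 406.2, 846.5 and 427.7 at 120 days against 79.8, 21.6 and 90.3 at 60 days, and 3 microglia markers, all higher. In controls 2 oligodendrocyte markers, 2 microglia markers and the interneuron marker Gad1 were higher, and the microglia markers C1qa and Cx3cr1 were lower. The part of these cells in the age differences was not tested. All 7 age calls were lost when the variances were moderated robustly and without a trend (limma adjusted p = 0.102 for Hcn2, 0.11 for Kcnc4 and 0.106 for Kcnab2 in G93A, and 0.0628 to 0.0802 in controls).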

How the data were processed

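The table holds signal intensity as deposited, computed by the authors with MAS5 according to the submitters' processing notes; no version or settings are recorded in the sources used here. Each array carries RNA from 1000 lumbar motor neurons of 1 mouse, laser-captured per the labels. Genes were named from the platform annotation, for probe sets with 1 symbol. Signals under 1 were set to 1 (0.236% of values) and put on the log2 scale with no further normalization. Probe sets above the array's median on at least 3 of 18 arrays were tested, 16565 in all, without control probe sets. One limma 3.58.1 model in R 4.3.3 (6 group means, 12 residual degrees of freedom, trended empirical Bayes, two-sided) gave all contrasts, and p-values were adjusted by Benjamini-Hochberg over the 16565 probe sets. Changes are those with adjusted p below 0.05, ± is the standard error of the log2 difference, and n is 3 animals per group. The script was tested on simulated data. The channel genes, partner and marker lists and the naming rule were chosen with earlier results of these data known. Named were genes without overlap of the groups with the smallest p, the smallest p in the mean over ages and in the change with age, class leaders by level, and a list of well-known channel genes. Genes named beside this rule, and the further probe sets of Cacng5, Kcnip1, Kcnip4 and Scn3b, were chosen after their values were seen. Sample numbers were not treated as pairs of animals: deviations of same-numbered G93A and control arrays correlated at -0.116 to 0.058. At 60 days each G93A array correlated best with the control array of its number (0.03 to 0.045), and at 120 days none did. With 3 arrays a group this check cannot settle whether the numbers carry a pairing. Alternatives were another normalization, pseudocount, filter, moderation or choice of probe set, array covariates, and leaving out arrays.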

Additional observations from a re-analysis of the deposited data

How the results depend on the processing

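The calls against age depended on the processing, and the genotype comparisons stayed at 0 channel genes under every alternative except one that left out an array. In controls, where 4 channel genes passed, quantile normalization left 2 and centring each array on its median left 1. With robust moderation without a trend, with only the groups compared or with the Gapdh ratio as covariate, 0 passed. Leaving out the 2 least correlated arrays left 1 control array at 60 days, so no count is given for that setting. In G93A, where 3 passed, the mean of all probe sets of a gene left 1, and 0 passed with robust moderation or with the hybridization-control level as covariate, and the Gapdh ratio left Kcnc4 and added Kcnab1. Leaving out each array in turn gave 0 to 5 in controls, 0 to 4 in G93A and 0 to 1 at 60 days (Kcnd2 without control replicate 1). Under some settings Cacnb1, Kcna6 and Kcnh7 in controls and Kcnab1 and Cacna1f in G93A passed.

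At an unadjusted p below 0.05 the 4 channel genes at 60 days became 2 with the hybridization-control level as covariate, and leaving out single arrays gave 2 to 6. The 6 at 90 days became 2 with the Gapdh ratio and 10 with only the groups compared, and leaving out single arrays gave 3 to 9. The 7 at 120 days became 4 with a pseudocount of 16, with a filter of 9 of 18 arrays, with robust moderation, with only the groups compared and with the Gapdh ratio, and leaving out single arrays gave 2 to 10. The 8 in the mean over ages became 5 with robust moderation, 4 with the mean of all probe sets, 2 with the hybridization-control level and 0 with the Gapdh ratio, and leaving out single arrays gave 3 to 9. With the filter of 9 arrays, 4 channel genes instead of 8 did not overlap at 90 days. Centring moved the median at 120 days from 0.13 to -0.19. Among named genes, 5 signs turned: under the mean of all probe sets Cacnb4 at 60 days (0.18), Kcnma1 at 120 days (-0.10), Scn3b in controls with age (-0.76) and Kcnma1 in G93A with age (-0.22), and with the Gapdh ratio Scn3b in controls with age (-0.10). The cause was not tested beyond what each setting changes by construction. Fitting the replicate number as a block left 0 calls at each age, 4 in controls and 3 in G93A with age, and 4, 7 and 6 genes at an unadjusted p below 0.05 at 60, 90 and 120 days. Signal near background and 3 arrays a group limit what these arrays can show.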
